A study of Homo sapiens with 18 samples.

Results

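The results describe 10 genes of the endoplasmic reticulum (ER) unfolded protein response, *HSPA5*, *HSP90B1*, *CALR*, *PDIA4*, *PDIA6*, *SDF2L1*, *CRELD2*, *MANF*, *HERPUD1* and *XBP1*, out of 57500 genes in the deposited tables. They were chosen by name, and all 10 were found by their symbols. RNA was sequenced in 18 libraries from a pair of human cancer cell lines, 9 from ES8, which is labelled Ewing sarcoma, and 9 from Rh30, which is labelled rhabdomyosarcoma. All cells carried dCas9-KRAB, a catalytically dead Cas9 fused to a repressor domain that silences the gene an sgRNA leads it to (CRISPRi), and all were kept in puromycin for 72 hours after the lentiviral sgRNA was introduced. Each line had 3 groups of 3 replicates (A, B and C). Parental cells received sgCTL, a non-targeting sgRNA, or sgDNAJC17, which targets *DNAJC17* for silencing, and cells with a 3xFLAG-tagged *DNAJC17* allele without its RNA recognition motif (ΔRRM), expressed from the EF1 promoter of a lentiviral vector with hygromycin resistance, received sgDNAJC17. No ΔRRM cells with sgCTL were analysed here, so the allele, its selection and the sgRNA cannot be told apart in any comparison of ΔRRM with parental sgCTL cells.

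Proteins that enter the secretory pathway fold in the ER with the help of resident chaperones and disulfide isomerases. When unfolded proteins build up there, the membrane sensors IRE1 (encoded by *ERN1*), PERK (*EIF2AK3*) and ATF6 start the unfolded protein response. IRE1 splices the *XBP1* mRNA so that it encodes an active transcription factor, ATF6 is cut to release another, and PERK slows translation while favouring that of ATF4. XBP1 and ATF6 raise the transcription of chaperone genes through ER stress response elements in their promoters. DNAJC17 is a member of the J-domain family, whose best known members are partners of Hsp70 chaperones such as HSPA5. Counts per gene do not separate spliced from unspliced *XBP1* mRNA.

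The promoters are shown because they carry the sequence by which this group of genes is known. In the RefSeq promoter table (GRCh38.p14, from 250 bases before to 50 bases after each gene's start), all 10 genes had an entry, and both strands were searched for 4 motifs. The ER stress response element (ERSE; CCAAT, any 9 bases, CCACG) was in 22 of 27305 promoters (0.0806%) and in 5 of the 10 genes. The ER stress response element II (ERSE-II; ATTGG, any base, CCACG) was in 15 of the 27305 promoters (0.0549%) and in 2 of the 10, *SDF2L1* and *HERPUD1*. The sequences follow 5' to 3', on the strand on which they match, with the fixed bases of the motif in capitals.
*HSPA5* ERSE, chr9:125241391-125241409, minus strand: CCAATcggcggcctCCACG
*HSP90B1* upstream ERSE, chr12:103930216-103930234, plus strand: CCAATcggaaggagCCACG
*HSP90B1* downstream ERSE, chr12:103930321-103930339, minus strand: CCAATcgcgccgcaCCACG
*XBP1* ERSE, chr22:28800603-28800621, minus strand: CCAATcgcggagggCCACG
*CALR* ERSE, chr19:12938384-12938402, minus strand: CCAATgatggtcgaCCACG
*CRELD2* ERSE, chr22:49918554-49918572, minus strand: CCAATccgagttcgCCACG
*SDF2L1* ERSE-II, chr22:21642114-21642124, minus strand: ATTGGtCCACG
*HERPUD1* ERSE-II, chr16:56932025-56932035, plus strand: ATTGGgCCACG
The sites in *HSPA5* (positions -66 to -48 from the start), *XBP1* (-52 to -34), *HERPUD1* (-117 to -107) and the upstream site of *HSP90B1* (-194 to -176) read in the direction of the gene. Those in *CALR* (-225 to -207), *CRELD2* (-80 to -62), *SDF2L1* (-188 to -178) and the downstream site of *HSP90B1* (-89 to -71) read against it. CCACG alone, which both elements contain, was in 37.9% of all promoters and in 9 of the 10 genes, with *PDIA6* as the exception. The unfolded protein response element (TGACG followed directly by TGG, whose reverse strand contains CCACG) was in 217 promoters (0.795%) and in none of the 10. *PDIA4*, *PDIA6* and *MANF* held neither ERSE nor ERSE-II in this window, which says only that these letters were not found there. The sites of *HSP90B1* and *CRELD2* fall inside the genes as the files give them, whose first exon starts further upstream than the RefSeq start. These matches are descriptions of sequence, and binding was not measured.

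**Figure D1:**
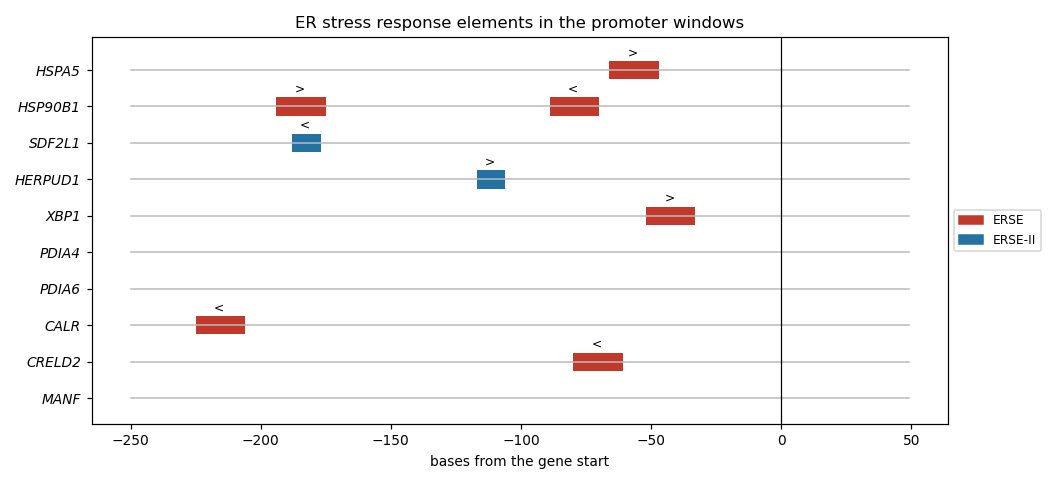
Positions of ERSE (red) and ERSE-II (blue) matches in the promoter windows of the 10 genes. The x axis is the distance in bases from the RefSeq start, and arrowheads give the direction of each match relative to the gene. Matches fall between positions -225 and -34, and *PDIA4*, *PDIA6* and *MANF* have none.

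The files give the genes as follows on GRCh38, each with its exons. *HSPA5* (ENSG00000044574) lies at chr9:125234853-125241330 on the minus strand, *HSP90B1* (ENSG00000166598) at chr12:103930107-103953645 on the plus strand, *CALR* (ENSG00000179218) at chr19:12938578-12944489 on the plus strand and *PDIA4* (ENSG00000155660) at chr7:149003062-149028641 on the minus strand. *PDIA6* (ENSG00000143870) lies at chr2:10783391-10837977 on the minus strand, and *MANF* (ENSG00000145050) at chr3:51385047-51389397 and *HERPUD1* (ENSG00000051108) at chr16:56932048-56944863 lie on the plus strand. Chromosome 22 holds *SDF2L1* (ENSG00000128228, 21642261 to 21644298) and *CRELD2* (ENSG00000184164, 49918167 to 49927540) on the plus strand and *XBP1* (ENSG00000100219, 28794555 to 28800597) on the minus strand. Of the exonic bases, 25.2% of *PDIA6* (with *ATP6V1C2*), 9.95% of *CALR*, 4.82% of *HSP90B1* and 3.25% of *CRELD2* overlap a gene on the opposite strand, and as the strand setting of the counting is not given in the sources used here, reads of the partners cannot be told apart.

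Library totals ran from 35342393 to 48245989 counts, and the lowest count of any of the 10 genes was 625 (*HERPUD1* in replicate B of ES8 sgCTL), so counting error was small for all of them. Levels are given as CPM, read counts relative to the library total after TMM scaling over the 18 libraries. *DNAJC17* itself stood at 11.15, 12.41 and 12.31 CPM in ES8 sgCTL and at 1.559, 1.962 and 1.557 CPM in ES8 sgDNAJC17, and at 11.67, 11.94 and 10.83 CPM against 2.52, 2.202 and 2.72 CPM in Rh30. In ΔRRM libraries it read 283.3 to 312.0 CPM in ES8 and 336.1 to 367.6 CPM in Rh30, a count that includes the introduced allele. The 6 markers of Ewing sarcoma summed to 269.0 to 305.0 CPM in ES8 libraries and to at most 0.164 CPM in Rh30, and the 8 markers of alveolar rhabdomyosarcoma summed to 2180 to 3460 CPM in Rh30 and 106.0 to 133.0 CPM in ES8, with *MYOG* and *CHRNA1* at 0 in every parental ES8 library. Of these 8, 6 were higher in Rh30 sgCTL than in ES8 sgCTL and 2 were lower, down to log2 -1.19. Among all genes tested, 42.0% were higher and 45.5% lower. Replicate A of ES8 sgDNAJC17 and replicate B of ES8 ΔRRM stood apart from their groups, with a mean chi-square per gene of 27.5 and 31.5 for the former against B and C (2.63 between B and C), and of 31.8 and 20.5 for the latter against A and C (9.08 between A and C). In Rh30 sgDNAJC17, replicate A differed from B and C by 16.0 and 28.7 (7.16 between B and C). Calls of the 10 genes that change without such a library are given with and without it. Nothing in the labels says that the triplicates were started from separate stocks, so p-values measure the spread between these cultures.

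The order of the 10 genes by level was similar in both lines, with *CALR* at the top and *HERPUD1* at the bottom in all 6 groups. Levels are compared between genes as CPM per kb of exonic length. In ES8 sgCTL, *CALR*, a calcium-binding lectin chaperone of glycoproteins, stood at 292.2 ± 5.03 CPM per kb (SD, n = 3). It was followed by *HSP90B1* (the ER paralogue of Hsp90, also called GRP94) at 156.3 ± 4.16, *HSPA5* (BiP, the ER Hsp70) at 126.4 ± 2.42, and the protein disulfide isomerases *PDIA4* at 91.04 ± 1.67 and *PDIA6* at 79.27 ± 1.17 CPM per kb. *SDF2L1*, which acts with the Hsp70 system of the ER, stood at 44.1 ± 2.62 CPM per kb. The lower end held *MANF*, a secreted trophic factor of the ER, at 15.68 ± 1.12, *XBP1* at 13.76 ± 0.34, *CRELD2*, a secreted ER stress protein, at 12.7 ± 0.276, and *HERPUD1*, a membrane component of ER-associated degradation (ERAD), at 2.562 ± 0.123 CPM per kb. All neighbours in this order were separated by more than their standard deviations.

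In Rh30 sgCTL, the level of *CALR* was 576.6 ± 23.7 CPM per kb and that of *HSPA5*, in second place here, was 378.2 ± 4.02 CPM per kb (SD, n = 3). *PDIA4* (122.8 ± 4.63) and *HSP90B1* (122.2 ± 2.91 CPM per kb) did not differ beyond their spread, and neither did *MANF* (47.38 ± 1.83) and *XBP1* (46.91 ± 2.37 CPM per kb). *SDF2L1* stood at 95.98 ± 2.9, *PDIA6* at 72.77 ± 2.93, *CRELD2* at 20.89 ± 1.03 and *HERPUD1* at 11.77 ± 0.334 CPM per kb. Knockdown placed *HSPA5* above *HSP90B1* in ES8, at 163.1 ± 2.98 against 151.2 ± 19.7 CPM per kb, within their spread. *XBP1* moved from below *MANF* to above it in ES8, at 19.71 ± 0.394 against 16.78 ± 0.216 CPM per kb. In Rh30 ΔRRM, *HSP90B1* stood at 85.76 ± 8.56 CPM per kb, within the spread of *SDF2L1* (88.69 ± 6.31) and *PDIA6* (85.0 ± 5.41).

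**Figure D2:**
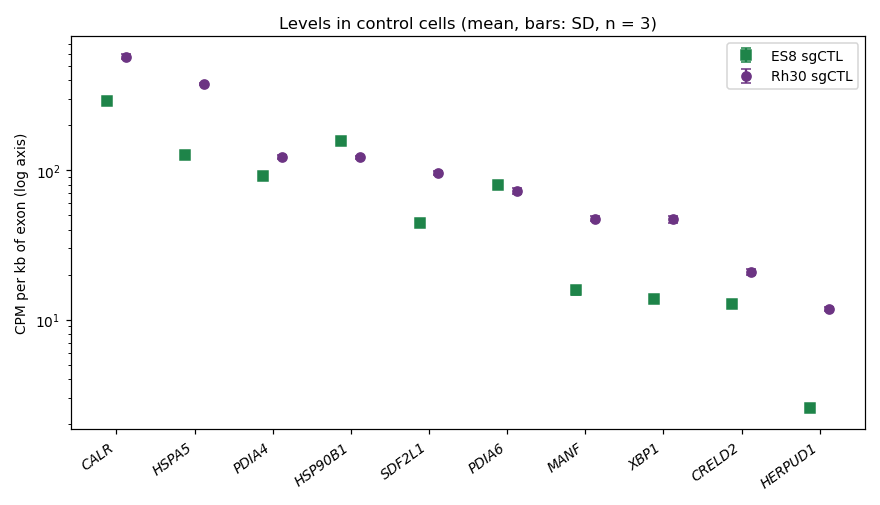
Levels of the 10 genes in sgCTL libraries of ES8 and Rh30 in CPM per kb of exonic length, on a log axis. Points are means and bars are standard deviations of 3 libraries. *CALR* is highest and *HERPUD1* lowest in both lines, and 8 genes are higher in Rh30.

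The first comparison asked how the lines differed before knockdown. With sgCTL, 8 of the 10 genes were higher in Rh30 than in ES8 and 2 were lower, by the quasi-likelihood test of edgeR, adjusted over 17925 genes by the Benjamini-Hochberg method (a gene passes at an adjusted p under 0.05). Among all genes tested 42.0% were higher and 45.5% lower, and 50.9% passed with a difference of at least 2-fold, so the count of the 10 is read against a background in which most genes differ. *HERPUD1* had the largest difference, with 58.68, 61.58 and 61.73 CPM in Rh30 against 12.53, 13.3 and 13.78 CPM in ES8, which is 4.51-fold (log2 2.17, standard error 0.0611, adjusted p = 3.21e-31). *XBP1* stood at 137.8, 150.3 and 138.1 CPM in Rh30 and at 42.02, 42.47 and 40.51 CPM in ES8 (log2 1.74, 3.347-fold, adjusted p = 3.02e-30). For *HSPA5* the libraries held 1461, 1491 and 1482 CPM against 491.8, 486.0 and 504.5 CPM (log2 1.55, 2.936-fold, adjusted p = 7.61e-31). Every Rh30 library lay above every ES8 library for these genes.

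*MANF* (95.96, 103.6 and 100.5 CPM in Rh30, 34.41, 30.35 and 34.52 CPM in ES8) and *SDF2L1* (105.6, 108.6 and 102.3 against 49.3, 50.83 and 45.25 CPM) were the other genes that differed by at least 2-fold, by 2.966 and 2.137 times. *CALR* was 1.937-fold higher in Rh30, at 1497, 1574 and 1624 CPM against 808.6, 783.4 and 786.8 CPM. *CRELD2* (108.2, 113.1 and 102.4 against 67.14, 65.37 and 64.31 CPM) was 1.614-fold higher and *PDIA4* (411.5, 410.7 and 384.9 against 304.0, 297.9 and 293.1 CPM) 1.324-fold higher. The genes lower in Rh30 were *HSP90B1*, at 578.5, 583.1 and 557.5 CPM against 740.8, 710.5 and 746.9 CPM (log2 -0.38, adjusted p = 2.07e-10), and *PDIA6*, at 285.4, 300.8 and 309.1 CPM against 330.6, 323.1 and 321.6 CPM (log2 -0.15, adjusted p = 0.00241). No libraries of the lines overlapped for any of the 10 genes. The share of all genes whose libraries do not overlap was not computed, here or in later comparisons, so overlap only describes the printed values. The median log2 difference of the 10 was 1.02, beside -0.07 over all genes, and the same 8 and 2 genes passed under every alternative without a fold requirement. In the lists of related genes, 16 of 24 other ER folding factors were higher and 6 lower, and 17 of 28 genes of translocation and secretion were higher and 8 lower, with median log2 differences of 0.68 and 0.47. Of the 14 genes of the PERK and ATF4 arm, 4 were higher and 9 lower, with a median of -0.31.

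After *DNAJC17* knockdown in ES8, 3 of the 10 genes rose, *HERPUD1*, *XBP1* and *HSPA5*, each by less than 2-fold, and the other 7 did not pass the test. *HERPUD1* rose by 1.569-fold, *XBP1* by 1.409-fold and *HSPA5* by 1.27-fold. The chaperones *HSP90B1* and *CALR* and the isomerases *PDIA4* and *PDIA6*, which share the ER lumen with *HSPA5*, had log2 fold changes from -0.08 to 0.08 and did not pass. As these are bulk samples, a lower share of cells of a kind and less RNA per cell cannot be told apart. Of the 17143 genes tested, 13.6% were higher and 13.8% lower after knockdown. The median log2 fold change of the 10 genes was 0.06, beside -0.02 over all genes.

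*HERPUD1* was at 12.53, 13.3 and 13.78 CPM with sgCTL and at 21.51, 20.89 and 20.75 CPM with sgDNAJC17 (log2 fold change 0.65, standard error 0.0792, adjusted p = 0.000597, edgeR). *XBP1* was at 42.02, 42.47 and 40.51 CPM with sgCTL and at 60.16, 58.32 and 60.55 CPM with sgDNAJC17 (log2 fold change 0.50, standard error 0.0608, adjusted p = 0.00061). *HSPA5* was at 491.8, 486.0 and 504.5 CPM with sgCTL and at 639.6, 647.7 and 624.7 CPM with sgDNAJC17 (log2 fold change 0.34, standard error 0.048, adjusted p = 0.00104). In each of these genes all 3 knockdown libraries lay above all 3 control libraries, and replicate A, which stood apart over all genes, lay with B and C. The calls of all 3 genes were kept under 9 other settings and with each of the 6 libraries left out in turn.

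*HSP90B1* had means of 732.7 ± 19.5 and 709.1 ± 92.2 CPM (SD, n = 3, sgCTL then sgDNAJC17), with replicate A at 602.6 CPM and replicates B and C at 761.4 and 763.2 CPM. *SDF2L1* stood at 61.14 CPM in replicate A and at 44.84 and 45.33 CPM in B and C, around a control mean of 48.46 ± 2.88 CPM, and *CRELD2* at 75.25 CPM in A and 63.13 and 65.01 CPM in B and C, around 65.61 ± 1.43 CPM. In these 3 genes the spread of the knockdown group came mostly from replicate A. *CALR* (792.9 ± 13.7 and 773.1 ± 31.5 CPM), *PDIA4* (298.3 ± 5.46 and 286.0 ± 10.0 CPM), *PDIA6* (325.1 ± 4.8 and 349.2 ± 5.4 CPM) and *MANF* (33.09 ± 2.37 and 35.43 ± 0.456 CPM) had log2 fold changes of -0.06, -0.08, 0.08 and 0.08, with adjusted p from 0.249 to 0.486. Without replicate A of ES8 sgDNAJC17, 6 genes passed, the 3 above and, with lower levels after knockdown, *CALR* (log2 -0.10), *PDIA4* (-0.12) and *SDF2L1* (-0.13), beside 22.4% of 17652 genes higher and 22.9% lower. With a correction for GC content and length, *CALR* and *PDIA4* also passed as lower, beside 3646 genes higher and 3639 lower of 17143. *PDIA4* passed as lower with library size alone as well, beside 11.3% of all genes higher and 17.4% lower.

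In Rh30, *XBP1*, *MANF* and *PDIA6* rose after knockdown, again each by less than 2-fold, and 7 genes did not pass. *XBP1* rose by 1.231-fold, *MANF* by 1.148-fold and *PDIA6* by 1.119-fold. Of 15391 genes tested, 16.1% were higher and 16.2% lower, and the median log2 fold change was 0.08 over the 10 genes and 0.00 over all. *XBP1* was at 137.8, 150.3 and 138.1 CPM with sgCTL and at 170.3, 178.4 and 170.3 CPM with sgDNAJC17 (log2 fold change 0.30, standard error 0.0615, adjusted p = 0.00251, edgeR), with no overlap between groups. *MANF* was at 95.96, 103.6 and 100.5 CPM and at 105.1, 116.6 and 119.0 CPM (log2 fold change 0.20, standard error 0.0679, adjusted p = 0.037), and *PDIA6* at 285.4, 300.8 and 309.1 CPM and at 321.9, 339.1 and 329.8 CPM (log2 fold change 0.16, standard error 0.0593, adjusted p = 0.0495). The groups did not overlap in these genes either, although the margin was small for *MANF*. *XBP1* passed under all other settings without a fold requirement and with each library left out, whereas without any 1 of 5 of the 6 libraries (all but replicate A of sgDNAJC17) *MANF* and *PDIA6* no longer passed.

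*HSPA5* stood at 1461, 1491 and 1482 CPM with sgCTL and at 1621, 1600 and 1520 CPM with sgDNAJC17 in Rh30 (log2 fold change 0.11, adjusted p = 0.149). *HERPUD1*, the most raised member in ES8, stood at 58.68, 61.58 and 61.73 CPM against 59.9, 62.1 and 65.75 CPM (log2 0.06, adjusted p = 0.512), with overlapping groups. *CALR* was at 1565 ± 64.4 and 1648 ± 45.3 CPM (log2 0.09, adjusted p = 0.275), *HSP90B1* at 573.0 ± 13.6 and 575.5 ± 14.2 CPM, *PDIA4* at 402.4 ± 15.2 and 388.7 ± 13.1 CPM, *SDF2L1* at 105.5 ± 3.19 and 102.7 ± 7.98 CPM, and *CRELD2* at 107.9 ± 5.34 and 106.4 ± 5.5 CPM, with log2 fold changes of 0.02, -0.03, -0.02 and 0.00 for the last 4. Replicates of the same letter deviated together in this comparison, so the fit with the replicate letter as a block is given beside it. With the block, 5 genes passed, *XBP1* (adjusted p = 2.89e-07), *PDIA6* (0.000236), *MANF* (0.000269), *HSPA5* (log2 0.11, adjusted p = 0.00173) and *CALR* (log2 0.09, adjusted p = 0.00896), all higher after knockdown, while 23.5% of all genes were higher and 23.5% lower. With a correction for GC content and length, *CRELD2* read 0.17 in place of 0.00 (adjusted p = 0.0147).

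Genes of epithelial cells moved with sgDNAJC17 in Rh30. They were listed because they had been seen earlier to differ in these Rh30 libraries, so their values are a description and not a test. Summed over 13 such genes, the libraries held 2.06 to 2.93 CPM with sgCTL, 14.7 to 20.9 CPM with sgDNAJC17 and 15.2 to 17.9 CPM in ΔRRM cells, and *CLDN7* and *RAB25* were at 0 in every sgCTL library. Of the 7 with enough counts to test, 5 rose after knockdown. Genes near 0 with sgCTL had enough counts only if high in the other group. With that filter and the way they were picked, this count cannot be compared with the 16.1% of all genes that rose. The keratin *KRT8* was among the 5, from 0.8529 to 9.514 CPM on average. In ES8 the 13 genes summed to 285.0 to 348.0 CPM and none of the 5 tested rose. The rhabdomyosarcoma markers also moved in Rh30, from 3340 to 3460 CPM with sgCTL to 2780 to 3050 CPM with sgDNAJC17 when summed over the 8 genes. Of these, 4 fell and 1 rose (median log2 -0.23), beside 16.2% of all genes lower and 16.1% higher. The part of either list in the Rh30 values of the 10 genes and of the related genes was not tested.

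**Figure D3:**
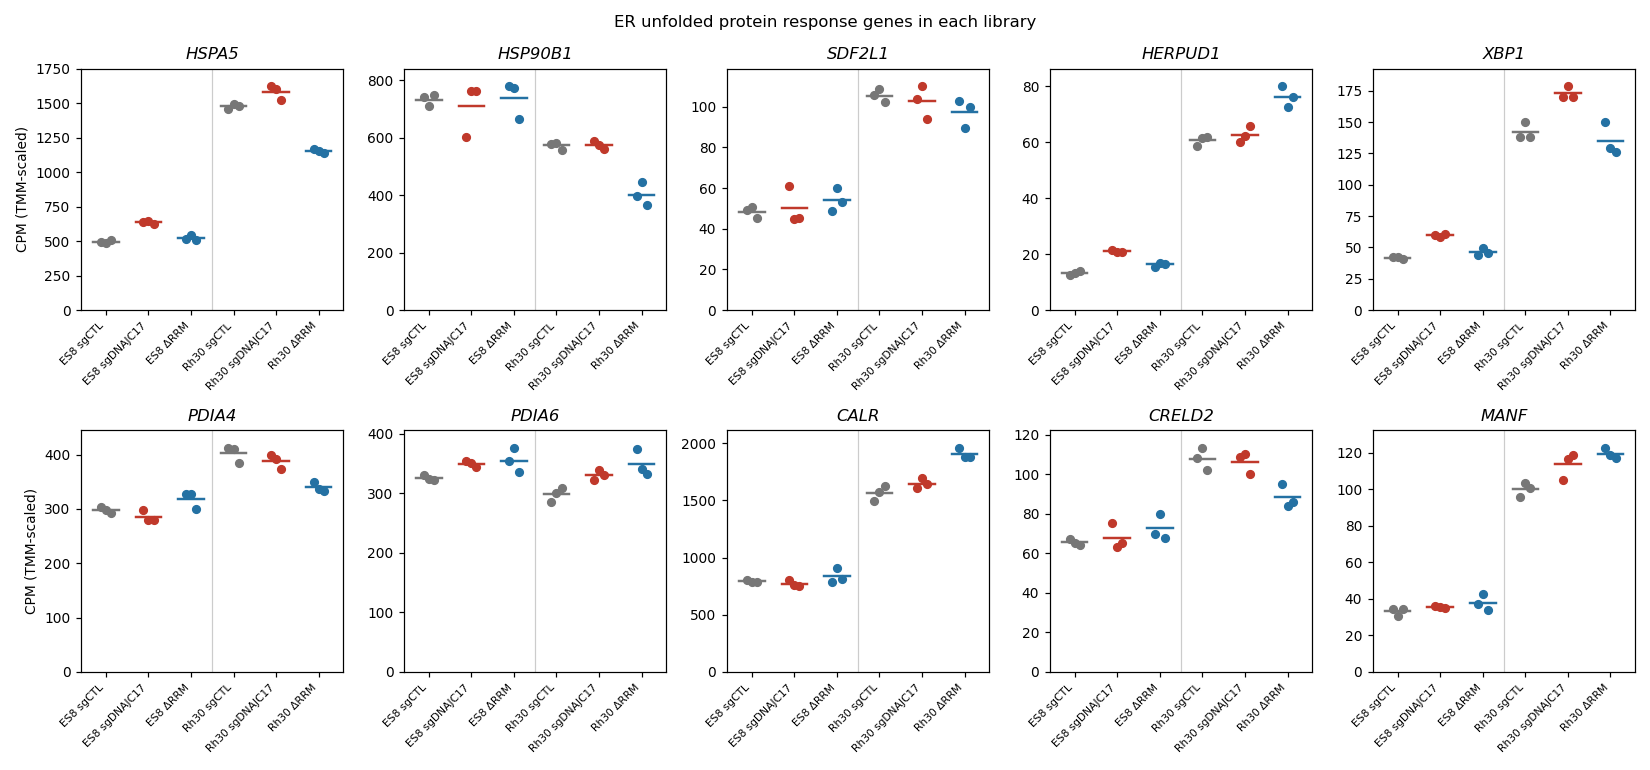
CPM of each of the 10 genes in every library, with a panel per gene and the y axis starting at 0. Dots are libraries in the order sgCTL, sgDNAJC17 and ΔRRM with sgDNAJC17 for ES8 and Rh30, and lines are group means. *HERPUD1*, *XBP1* and *HSPA5* separate sgDNAJC17 from sgCTL in ES8, and *HSP90B1* and *HSPA5* are lowest in the ΔRRM group of Rh30.

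Of the 10 genes, 1 passed in both knockdowns, *XBP1*, which was higher in both. Of 13841 genes tested in both lines, 854 (6.17%) were higher in both, 856 (6.18%) lower in both, and 176 passed in opposite directions. The effect of knockdown on *HERPUD1* differed between the lines, being 0.56 lower on the log2 scale in Rh30 (interaction -0.56, standard error 0.1054, adjusted p = 0.0025, edgeR over the 12 parental libraries and 18899 genes). Interactions passed for 5.23% of all genes in the direction of Rh30 and for 4.55% in that of ES8. *DNAJC17* itself fell further in ES8 (log2 -2.84) than in Rh30 (log2 -2.19), and its own interaction of 0.68 passed. The part of this in the interactions of the 10 genes was not tested. *HSPA5*, which passed in ES8 only, had an interaction of -0.21 (standard error 0.0838, adjusted p = 0.122). This interaction passed with library size alone, with all 18 libraries fitted together, by DESeq2 and after correcting for GC content and length, alone or together with the replicate block, which are 5 of 9 other settings, and in none of 12 fits that left out a library. The interaction of *XBP1* was -0.17 (standard error 0.0938, adjusted p = 0.27), and those of *MANF* and *PDIA6*, which passed in Rh30 only, were 0.15 (adjusted p = 0.416) and 0.11 (adjusted p = 0.497). *CALR* had 0.17 (adjusted p = 0.249), and the other 4 genes lay between -0.04 and 0.12.

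The related genes place the 10 among the other arms and tasks of the ER. Their counts are read against all genes tested, of which 13.6% rose and 13.8% fell in ES8 and 16.1% rose and 16.2% fell in Rh30. In the PERK and ATF4 arm, 6 of 14 genes rose and none fell in ES8, and 7 rose and 2 fell in Rh30, with median log2 fold changes of 0.24 and 0.26. *PPP1R15A*, which brings a phosphatase to eIF2α and so undoes the translation block of PERK, rose from 47.71, 48.17 and 48.21 CPM to 102.1, 98.57 and 105.2 CPM in ES8 (log2 1.06) and from 52.4, 52.25 and 47.76 CPM to 141.8, 131.6 and 130.4 CPM in Rh30 (log2 1.42). The transcription factor *ATF4* rose from a mean of 311.0 to 519.5 CPM in ES8 (log2 0.72) and from 239.7 to 345.4 CPM in Rh30 (log2 0.54). Its targets *DDIT3* (CHOP; log2 0.52 in ES8 and 0.49 in Rh30) and *ATF3* (0.44 and 0.20) rose in both lines as well. *CHAC1*, a glutathione-degrading enzyme induced by ATF4, rose by 1.09 in ES8, and *SLC7A11*, the cystine transporter, by 0.62 in Rh30. In both lines *PPP1R15A* had a larger log2 fold change than any of the 10 genes.

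Among the sensors and their processing enzymes, none of 8 rose in either line. *ATF6B*, a relative of *ATF6*, fell by 0.39 in ES8 and by 0.42 in Rh30 on the log2 scale, and *CREB3L2*, a membrane-bound transcription factor of the secretory pathway, fell by 0.46 in Rh30. Of 24 other ER folding factors, 3 rose and 4 fell in ES8, and 9 rose and 2 fell in Rh30. *DNAJB9* and *DNAJC3*, J-domain partners of HSPA5, and *ERP29* rose in both lines (*DNAJB9* by log2 0.51 and 0.63, *DNAJC3* by 0.31 and 0.20, *ERP29* by 0.34 and 0.24, in ES8 and Rh30), the isomerase *PDIA5* fell in both (log2 -0.30 and -0.33), and the ER disulfide reductase *DNAJC10* fell by 0.56 in ES8. In the degradation machinery around *HERPUD1*, 5 of 18 genes rose and 1 fell in ES8 and 2 of 17 rose and 1 fell in Rh30, with *SELENOK* as the gene that rose in both (log2 0.34 and 0.36). *UBXN4* fell by 0.50 in ES8, and *DERL2* rose by 0.37 in Rh30.

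Of the 28 genes of translocation and secretion, 8 rose and 1 fell in ES8 and 15 rose and 1 fell in Rh30, with median log2 fold changes of 0.09 and 0.18. *SEC61B*, a subunit of the translocation channel, rose by 0.38 in ES8 and 0.44 in Rh30, and *SSR2*, *SSR4*, *SPCS2*, *SEC11A*, *SURF4* and *TMED10* also rose in both lines, by 0.18 to 0.42. The largest rises in this list were those of *KDELR1* in ES8 (log2 0.43) and of *SRPRB* and *SSR3* in Rh30 (0.52 and 0.50). The products of the heat shock genes act outside the ER, and not all of them are cytosolic (that of *HSPE1* is mitochondrial). Of these 14 genes, 3 rose and 3 fell in ES8, and 10 rose and 1 fell in Rh30 (medians 0.06 and 0.29). *DNAJA1* and *BAG3* rose in both lines (log2 0.37 and 0.34 in ES8, 0.38 and 0.40 in Rh30). *HSPA1A*, *HSPA8*, *HSP90AB1* and *HSPE1* passed in opposite directions in the lines. *HSPA1A* fell by 1.42 in Rh30 from a mean of 0.5378 CPM, and since it shares nearly all of its sequence with *HSPA1B* its counts are uncertain.

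**Figure D4:**
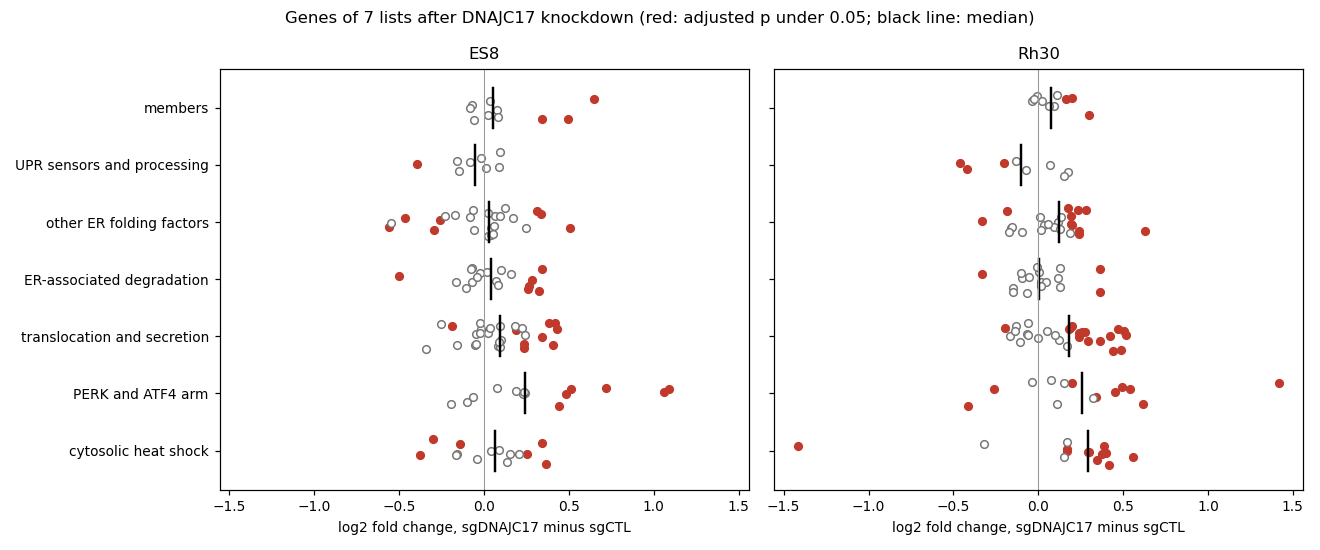
Log2 fold changes of the 10 genes and of 6 lists of related genes after knockdown (sgDNAJC17 against sgCTL) in ES8 and Rh30. Each dot is a gene, red dots pass at an adjusted p under 0.05, and black lines are list medians, which for the 10 genes are 0.06 in ES8 and 0.08 in Rh30.

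These list counts depended on the fit. With 1 of the 6 ES8 libraries left out in turn, 1 to 7 folding factors, 1 to 8 degradation genes, 5 to 15 translocation and secretion genes, 6 to 7 PERK and ATF4 genes and 2 to 7 heat shock genes rose, beside 7.61% to 22.4% of all genes. The highest of these counts were those without replicate A of sgDNAJC17, where 22.9% of all genes fell. In that fit, 6 folding factors, 2 degradation genes, 3 translocation and secretion genes, 1 PERK and ATF4 gene, 5 heat shock genes and 2 sensors fell. In Rh30 the same ranges were 4 to 10, 1 to 2, 9 to 17, 6 to 8 and 8 to 12, beside 9.45% to 20.3% of all genes. Without replicate A of Rh30 sgDNAJC17, where 20.3% of 15705 genes rose and 21.1% fell, 10 folding factors rose and 5 fell, 17 translocation and secretion genes rose and 3 fell, 8 PERK and ATF4 genes rose and 2 fell, and 12 heat shock genes rose and 1 fell. With the replicate block in Rh30, 23.5% of all genes rose and 23.5% fell. Beside these shares, 13 folding factors rose and 5 fell, and 17 translocation and secretion genes rose and 4 fell. In the same fit, 8 PERK and ATF4 genes rose and 2 fell, and 4 degradation genes rose and 4 fell. Of the sensors 2 rose and 3 fell, and of the heat shock genes 12 rose and 1 fell. With counts scaled by library size alone, where 11.3% of all genes rose and 17.4% fell in ES8 and 11.1% rose and 20.8% fell in Rh30, 1 folding factor rose and 5 fell in ES8, and 5 rose and 5 fell in Rh30. Under this scaling 2 degradation genes rose in ES8 and 1 fell, 6 translocation and secretion genes rose and 1 fell, 6 PERK and ATF4 genes rose and none fell, and 2 heat shock genes rose and 3 fell. In Rh30, 2 degradation genes rose and 4 fell, 11 translocation and secretion genes rose and 3 fell, 6 PERK and ATF4 genes rose and 2 fell, and 8 heat shock genes rose and 1 fell.

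Of the related genes that passed in the same direction in both lines, *PPP1R15A*, *ATF4*, *DDIT3*, *ATF6B*, *SEC61B*, *SSR2*, *SEC11A*, *DNAJA1* and *BAG3* kept their calls in both lines with each of the 6 libraries of a line left out in turn. The other calls were lost in part of these fits. In ES8, *DNAJB9*, *DNAJC3* and *SPCS2* passed in 1 of 6 such fits, *SELENOK* and *SURF4* in 2, and *PDIA5* and *TMED10* in 3. In Rh30, *ATF3* passed in 1 of 6, *DNAJC3*, *SSR4* and *SURF4* in 2, *SELENOK* in 3, and *ERP29*, *PDIA5*, *SPCS2* and *TMED10* in 5. Among the heat shock genes that passed in opposite directions, *HSPA8* and *HSPE1* passed in all 6 fits of each line, *HSP90AB1* in 1 of 6 in each, and *HSPA1A* in 2 in ES8 and 3 in Rh30.

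In ES8, none of the 10 genes passed between the cells with ΔRRM and sgDNAJC17 and those with sgCTL. By DESeq2 the count was also 0, and 2 genes had an unadjusted p under 0.05 in edgeR, *HERPUD1* and *XBP1*. All 10 log2 fold changes were at or above 0, from 0.00 (*HSP90B1*, which was -0.02 with library size alone) to 0.30 (*HERPUD1*), with a median of 0.13 beside 0.00 over all genes. Without replicate B of ES8 ΔRRM, which stood apart, the median of the 10 was 0.07. Of 17199 genes, 0.093% passed as higher and 0.0814% as lower in this comparison. *HERPUD1* read 15.5, 16.94 and 16.43 CPM in ΔRRM cells, above the sgCTL libraries (12.53 to 13.78) and below the sgDNAJC17 libraries (20.75 to 21.51), with a log2 fold change of 0.30 against sgCTL (standard error 0.0824, unadjusted p = 0.00336, adjusted p = 0.222, edgeR). *XBP1* read 44.19, 49.63 and 45.55 CPM (log2 0.15, standard error 0.0693, adjusted p = 0.371) and *HSPA5* 512.3, 547.0 and 508.5 CPM (log2 0.07, standard error 0.0553, adjusted p = 0.557). In each of these genes the ΔRRM libraries lay between those of the other groups. No gene of the 6 related lists passed in this comparison. With 1 library left out in turn, up to 3 PERK and ATF4 genes were higher and up to 1 lower. Up to 2 translocation and secretion genes and 1 heat shock gene were higher, and up to 2 folding factors lower. Calls over all genes were most frequent without replicate A of ES8 ΔRRM, at 1.3% higher and 1.32% lower. Without replicate B of ES8 ΔRRM, where 0.456% of all genes were higher and 0.399% lower, 1 translocation and secretion gene and 1 heat shock gene were higher.

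Against sgDNAJC17, a comparison that shares its ΔRRM libraries with the previous one, *XBP1*, *HSPA5* and *HERPUD1* were lower in ΔRRM cells of ES8. Their log2 fold changes were -0.34 (standard error 0.09, adjusted p = 0.0263), -0.26 (0.0781, 0.0398) and -0.35 (0.1031, 0.0406). The other 7 genes lay between 0.04 and 0.18 and did not pass. Of 17099 genes, 7.35% were higher and 7.36% lower. The 3 calls were lost without any 1 of replicates B and C of ES8 sgDNAJC17 and A and C of ES8 ΔRRM, *XBP1* and *HSPA5* passed without replicate B of ES8 ΔRRM, and all 3 passed without replicate A of ES8 sgDNAJC17. The 3 calls were also lost with the replicate letter as a block. For the other 7 genes the ΔRRM means were *HSP90B1* 738.1 ± 64.2, *CALR* 839.7 ± 65.2, *PDIA4* 318.3 ± 16.3, *PDIA6* 354.8 ± 20.2, *CRELD2* 72.58 ± 6.59, *SDF2L1* 53.89 ± 5.67 and *MANF* 37.98 ± 4.53 CPM (SD, n = 3). Replicate B, which stood apart over all genes, was the highest of its group for 9 of the 10 genes.

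In Rh30, cells with ΔRRM and sgDNAJC17 differed from sgCTL in 8 of the 10 genes, 4 higher and 4 lower. The genes higher were *HERPUD1*, *CALR*, *MANF* and *PDIA6*, by 1.198-fold to 1.287-fold, and the genes lower were *HSP90B1*, *HSPA5*, *CRELD2* and *PDIA4*, at 0.72 to 0.8671 of the sgCTL level. Of 15442 genes tested, 33.8% were higher and 35.0% lower. With counts scaled by library size alone, none of the 10 was higher and 6 were lower, beside 23.2% and 46.8% of all genes. In the TMM-scaled fit, the median log2 fold change was -0.06 over the 10 genes and -0.01 over all. *HSP90B1* stood at 395.3, 445.1 and 365.7 CPM against 578.5, 583.1 and 557.5 CPM (log2 fold change -0.47, standard error 0.0665, adjusted p = 5.33e-09, edgeR), and *HSPA5* at 1164, 1156 and 1135 CPM against 1461, 1491 and 1482 CPM (-0.32, 0.0671, 2.42e-05). *CRELD2* stood at 95.06, 83.77 and 86.07 CPM (log2 -0.25, adjusted p = 0.000381) and *PDIA4* at 349.6, 336.7 and 333.8 CPM (log2 -0.21, adjusted p = 0.00302). Every ΔRRM library lay below every sgCTL library in these 4 genes, which include the ER Hsp70 (*HSPA5*) and the ER Hsp90 (*HSP90B1*).

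On the higher side in Rh30 ΔRRM, *HERPUD1* stood at 79.9, 72.5 and 76.0 CPM against 58.68, 61.58 and 61.73 CPM with sgCTL (log2 0.36, standard error 0.0636, adjusted p = 9.57e-07, edgeR). *CALR* stood at 1956, 1879 and 1876 CPM (log2 0.32, adjusted p = 4.3e-05), *MANF* at 122.4, 119.0 and 117.2 CPM (log2 0.29, adjusted p = 2.7e-05) and *PDIA6* at 373.7, 340.5 and 331.6 CPM (log2 0.26, adjusted p = 0.000243). None of these libraries overlapped with sgCTL. *SDF2L1* (102.9, 89.66 and 99.89 CPM, log2 -0.08, adjusted p = 0.277) and *XBP1* (150.3, 129.5 and 125.7 CPM, log2 -0.04, adjusted p = 0.641) did not pass. The calls of the 4 higher genes depended on the scaling, and the directions of *CRELD2* and *MANF* on the correction for GC content and length. With counts scaled by library size alone, which moved the median log2 fold change of all genes by -0.23, none of the 10 was higher and 6 were lower (*CRELD2*, *HSP90B1*, *HSPA5*, *PDIA4*, *SDF2L1* and *XBP1*), and *HERPUD1*, *CALR*, *MANF* and *PDIA6* had 0.13, 0.08, 0.06 and 0.03. With a correction for GC content and length, *CRELD2* turned to 0.16 and *MANF* to -0.04, and 3 genes were higher and 4 lower. *SDF2L1* and *CRELD2* are the most GC-rich of the 10, with 66.0% and 61.0% GC as the mean over their annotated transcripts. These values lie above those of 98.5% and 88.8% of the genes above 3 on the log2 CPM scale. *HSP90B1*, *HSPA5* and *PDIA4* were lower under each of these settings.

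The rhabdomyosarcoma markers were lower still in the ΔRRM group of Rh30 than after knockdown. With sgCTL, 2 of the 8 were lower in Rh30 than in ES8. Summed over the 8 rhabdomyosarcoma markers, ΔRRM libraries held 2180 to 2440 CPM against 3340 to 3460 CPM with sgCTL, and all 8 genes fell. Against sgDNAJC17, 7 of the 8 were lower in ΔRRM cells, beside 30.5% of 15309 genes. The epithelial genes, given above, were as high as after knockdown. Their part in the values of the 10 genes was not tested. In the related lists, beside 33.8% of all genes higher and 35.0% lower, 19 of 28 translocation and secretion genes were higher and 8 lower, with *SEC11C* (from a mean of 19.8 to 54.65 CPM) and *SEC11A* (log2 1.12), subunits of the signal peptidase, furthest from 0. *DNAJB9* (log2 1.18) and *SDF2* (0.90), the paralogue of *SDF2L1*, led the other folding factors, of which 10 were higher and 8 lower. Of the sensors, 1 was higher and 5 lower, led by *CREB3L2* (log2 -0.82) and *ATF6B* (-0.76), and of the 17 degradation genes tested, 7 were higher and 6 lower, led by *SELENOK* (0.94) and *ERLEC1* (0.76). In the PERK and ATF4 arm 8 were higher and 2 lower (*DDIT3* 0.74, *PSAT1* 0.70), and of the heat shock genes 9 were higher and 3 lower (*HSPA8* 0.76, *HSPA1A* -2.73). With library size alone, 16 translocation and secretion genes were higher and 9 lower, 7 folding factors were higher and 13 lower, and 6 degradation genes were higher and 9 lower. Of the sensors 1 was then higher and 7 lower, of the PERK and ATF4 genes 6 were higher and 4 lower, and of the heat shock genes 4 were higher and 5 lower.

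Against sgDNAJC17, ΔRRM cells of Rh30 had 2 of the 10 genes higher and 5 lower, beside 29.4% of 15309 genes higher and 30.5% lower. With library size alone, none of the 10 was higher and 6 were lower, beside 21.0% and 40.7% of all genes. *HSP90B1* (590.2, 574.5 and 561.9 CPM after knockdown) was at -0.51 on the log2 scale (adjusted p = 5.52e-08, edgeR) and *HSPA5* at -0.45 (adjusted p = 1.66e-06). *XBP1* was lower by 0.35 on the log2 scale (log2 -0.35, adjusted p = 8.54e-05), with its ΔRRM libraries (125.7 to 150.3 CPM) below all sgDNAJC17 libraries (170.3 to 178.4 CPM). *CRELD2* had -0.26 (adjusted p = 0.00301) and *PDIA4* -0.18 (adjusted p = 0.0351). The genes higher in ΔRRM cells were *HERPUD1*, with 0.29 (adjusted p = 0.00109), and *CALR*, with 0.22 (adjusted p = 0.0192). *PDIA6* and *MANF* had log2 fold changes of 0.09 and 0.08 and *SDF2L1* of -0.07, and these did not pass. Some of these calls turned on single libraries. *PDIA4* no longer passed without replicate B of sgDNAJC17 or without any 1 of the ΔRRM libraries, and *CALR* not without replicate A of ΔRRM. With a correction for GC content and length, *CRELD2* did not pass and *SDF2L1* passed as lower.

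**Figure D5:**
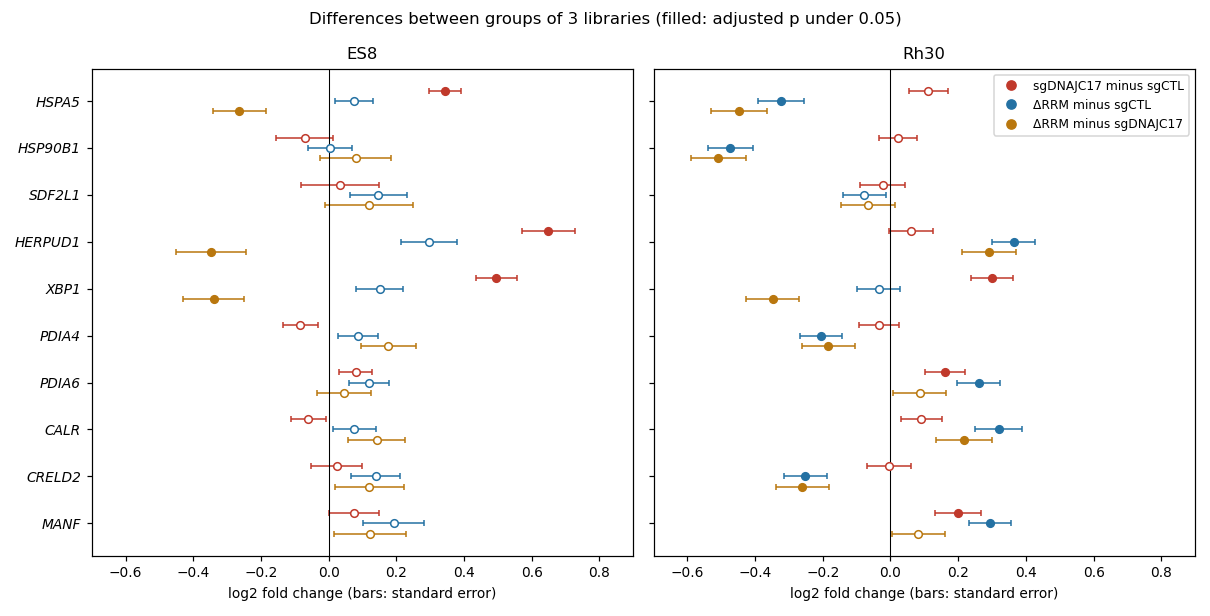
Log2 fold changes of the 10 genes in the 3 comparisons of each line (sgDNAJC17 against sgCTL, ΔRRM against sgCTL and ΔRRM against sgDNAJC17). Points are edgeR estimates, bars are standard errors, and filled points pass at an adjusted p under 0.05. In ES8 the ΔRRM group does not pass against sgCTL for any gene, and in Rh30 it passes for 4 genes above 0 (none with library size alone) and 4 below 0.

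The difference between ΔRRM and sgCTL was itself different between the lines for 5 of the 10 genes (interaction over 12 libraries and 18854 genes, of which 19.9% passed in the direction of Rh30 and 21.5% in that of ES8). *HSP90B1* had an interaction of -0.48 on the log2 scale (standard error 0.0951, adjusted p = 0.000259, edgeR), *HSPA5* of -0.40 (standard error 0.0749, adjusted p = 0.000142), *CRELD2* of -0.39 (standard error 0.097, adjusted p = 0.00214) and *PDIA4* of -0.29 (standard error 0.078, adjusted p = 0.004), all lower in Rh30. *CALR* had one of 0.24 (standard error 0.085, adjusted p = 0.0233), higher in Rh30, and it passed in 5 of 12 fits that left out a library. The interaction of *CRELD2* was 0.04 after the correction for GC content and length. *HERPUD1*, whose response to knockdown differed between the lines, had 0.07 here (adjusted p = 0.633).

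The summed level of the 10 genes was 2803 to 2881 CPM in ES8 sgCTL, 2956 to 3025 CPM in ES8 sgDNAJC17 and 2840 to 3185 CPM in ES8 ΔRRM, and 4740 to 4897, 4979 to 5180 and 4547 to 4789 CPM in the same groups of Rh30. The sgDNAJC17 libraries lay above those with sgCTL in both lines, although such a sum weighs the most abundant genes most. In ES8, *HSPA5* went from a mean of 494.1 to 637.3 CPM, while *CALR*, *HSP90B1* and *PDIA4* had lower means after knockdown. In Rh30, *HSPA5* (1478 to 1581 CPM) and *CALR* (1565 to 1648 CPM) had the largest differences in CPM. Neither passed in the fit without the block. *CALR* and *HSPA5* made up most of the sum in Rh30. With log2 levels centred within each line, *XBP1* followed the mean of the other 9 most closely (Pearson's r = 0.747 over 18 libraries), followed by *HSPA5* (0.599) and *CRELD2* (0.58). *SDF2L1* (0.386), *PDIA6* (0.325), *MANF* (0.285), *PDIA4* (0.258) and *HERPUD1* (0.156) followed it less, and *HSP90B1* (0.046) and *CALR* (-0.169) lay near or below 0. The libraries of a group share their treatment, and centring within a line keeps the differences between its groups, so the values are descriptions. Among 8983 genes with a mean of at least 5 CPM in every group, those whose level, centred in the same way over the 18 libraries, was most like the mean of the 10 were *CD99* (Pearson's r = 0.942), *CFL1* (0.923), *SNF8* (0.915), *FTH1* (0.915), *PES1* (0.901), *CBX8* (0.901), *RBM42* (0.9), *UBE2C* (0.898), *SNHG7* (0.898) and *COMMD9* (0.897).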

How the data were processed

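RNA was measured by poly-A RNA-seq in 18 libraries of ES8 and Rh30 cells. The authors deposited 1 table per library of raw read counts per gene, without normalization. According to the submitters' processing notes, reads were trimmed with Trimmomatic 0.36, aligned with STAR 2.5.2b to GRCh38 and counted with featureCounts of Subread 1.5.2. The study's methods name an older build, but 85.3% of 18960 genes start within 1 kb of their GRCh38.p14 position and 4.0% of their GRCh37 position, so GRCh38 was used. Symbols were found for 55082 of 57500 gene identifiers. Library totals (35342393 to 48245989 counts) made counting error small for the 10 genes, and alignment and counting could not be repeated.

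Groups came from the labels. Counts were tested in edgeR 4.0.16 (R 4.3.3) by its quasi-likelihood test after filterByExpr and TMM scaling, in a fit of the 6 libraries compared, with p-values adjusted over all genes tested by the Benjamini-Hochberg method and a threshold of 0.05. The standard error is the absolute log2 fold change divided by the square root of F. Interactions used 12 libraries. The study's methods name DESeq2, which was an alternative here (1.42.0). CPM values for display were TMM-scaled over 18 libraries, and levels between genes were divided by merged exon length. Correlations used log2 CPM (prior count 2) centred within each line. Motifs were searched in RefSeq promoters on both strands. Scripts were tested on simulated data. limma 3.58.1, Python 3.11.15, numpy 2.4.6, pandas 2.3.3 and matplotlib 3.10.9 were also used.

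Same-letter replicates deviated together in the Rh30 knockdown (correlations across 8060 genes of 0.758, 0.466 and 0.506 for A, B and C), so the fit with the letter as a block stands beside it. The pairing comes from the data, since the labels give only letters. Other alternatives were a fold change of at least 2, an adjusted p under 0.01, DESeq2, its size factors in edgeR, library size alone, no filter, a minimum of 10 counts per library, 1 fit of all 18 libraries and leaving out each library. After seeing the data, a correction for GC content and length (lowess span 0.3) was added, with and without the block. The 10 genes and the lists were chosen with earlier results of these data known. Genes named beyond the 10 are *DNAJC17*, list genes that passed in the same direction in both knockdowns, up to 2 genes per list and comparison with the largest change among those passing, and the 10 genes most like the mean of the members. *HSPA8*, *HSP90AB1*, *HSPE1*, *KRT8* and the markers at 0 were named after their values were seen. Splicing cannot be read from gene counts and was not analysed.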

Additional observations from a re-analysis of the deposited data

Results flagged for a closer look

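The effect of a treatment differed between the lines for 6 results, each by edgeR's test of the interaction itself. Over all genes, the knockdown interaction passed for 5.23% in the direction of Rh30 and 4.55% in that of ES8. The ΔRRM interaction passed for 19.9% and 21.5%. For knockdown (sgDNAJC17 against sgCTL), *HERPUD1* differed by -0.56 on the log2 scale (Rh30 minus ES8), having risen by 0.65 in ES8 and stood at 0.06 in Rh30. *DNAJC17* itself had log2 fold changes of -2.84 in ES8 and -2.19 in Rh30, and the part of this in the difference was not tested. For ΔRRM cells against sgCTL, *HSP90B1* differed by -0.48, with 0.00 in ES8 and -0.47 in Rh30. *HSPA5* differed by -0.40, with 0.07 in ES8 and -0.32 in Rh30. *CRELD2* differed by -0.39, with 0.14 and -0.25, but by 0.0427 after the correction for GC content and length. *PDIA4* differed by -0.29, with 0.09 and -0.21. *CALR* differed by 0.24, with 0.08 in ES8 and 0.32 in Rh30, and this call was lost in part of the fits that left out a library. The ΔRRM values of a line rest on the same sgCTL libraries as its knockdown values. Epithelial and rhabdomyosarcoma markers moved with these groups in Rh30, and their part in the differences was not tested.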

How the results depend on the processing

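The counts of the 10 genes that passed moved as follows. A fold change of at least 2 left 0 genes in each comparison except the baseline of Rh30 against ES8, where 5 remained of 10. For ES8 knockdown (3 genes, all higher), the GC content and length correction gave 5, alone and with the block. Of these, 3 were higher and 2 (*CALR* and *PDIA4*) lower. Library size alone added *PDIA4* as lower, and leaving out a library gave 3 to 6. For Rh30 knockdown (3, all higher), an adjusted p under 0.01, library size alone, no filter and all 18 libraries in 1 fit gave 1 each. The correction with the block gave 5, of which 4 were higher and 1 (*HSP90B1*) lower, and leaving out a library gave 1 to 3. For ES8 ΔRRM against knockdown (3, all lower), an adjusted p under 0.01 gave 0, no filter 1, the correction 5 (*CALR* and *PDIA4* added as higher), and leaving out a library 0 to 3. For the knockdown interaction (1, *HERPUD1*), library size alone, all 18 libraries and DESeq2 gave 2 each, with *HSPA5* added, the correction 3 (*HSPA5* and *CALR* added) and with the block 7 (also *CRELD2*, *PDIA4*, *SDF2L1* and *XBP1*), and leaving out a library 1 to 2 (*CALR* added without replicate A of ES8 sgDNAJC17). The cause of these moves was not tested.

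With the replicate letter as a block, Rh30 knockdown gave 5 genes, ES8 ΔRRM against knockdown gave 0, and *PDIA4* lost its call in Rh30 ΔRRM against knockdown. The block changed no other call of the 10 genes in a pairwise comparison. Outside Rh30 knockdown, at least 1 letter of each comparison had a correlation of deviations under 0.1 (-0.207, -0.574 and 0.509 in ES8 knockdown). These correlations cannot settle whether cultures of the same letter were handled together, and the labels do not say.

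Log2 fold changes that changed sign were small in most cases. In ES8 knockdown, *SDF2L1* was -0.016 with library size alone, -0.0545 with the correction and -0.0559 with the correction and block, *CRELD2* was -0.0242 with library size alone and -0.0043 with all 18 libraries, and *MANF* was -0.029 with the correction and -0.0271 with the block added. In Rh30 knockdown, *HSP90B1* was -0.0392 with library size alone, -0.0871 with the correction and -0.0876 with the block added, *SDF2L1* was 0.0481 and 0.0477 in these, *HERPUD1* was 0.00 with library size alone, and *CRELD2* was 0.17 in both forms of the correction. In ES8 ΔRRM against sgCTL, *HSP90B1* was -0.0178 with library size alone. In Rh30 ΔRRM against sgCTL, *CRELD2* was 0.16 and *MANF* -0.0401 in both forms of the correction. In Rh30 ΔRRM against knockdown, *PDIA6* was -0.0763 and *MANF* -0.0798 with library size alone, and *MANF* was -0.11 in both forms of the correction. The interaction of *CRELD2* was 0.0427 with the correction and 0.0446 with the block added.

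Leaving out a library in turn, ES8 knockdown ran from -0.126 to 0.0313 for *HSP90B1*, -0.129 to 0.11 for *SDF2L1* and -0.0597 to 0.0711 for *CRELD2*. Rh30 knockdown ran from -0.0005 to 0.0347 for *HSP90B1*, -0.0763 to 0.0302 for *SDF2L1* and -0.0435 to 0.0318 for *CRELD2*. ES8 ΔRRM ran from -0.0351 to 0.0697 for *HSP90B1* against sgCTL and from -0.0234 to 0.148 against knockdown, and Rh30 ΔRRM against sgCTL ran from -0.104 to 0.0058 for *XBP1*. Of the values of single genes among the 10, 592 kept their direction and side of the threshold under other settings and 441 with a library left out, 28 and 35 lost their call, and 18 and 2 gained one.

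Over all genes, counts scaled by library size alone lowered the share of calls that were higher from 49.7% to 39.3% in ES8 knockdown, 49.7% to 34.8% in Rh30 knockdown, 49.1% to 33.2% in Rh30 ΔRRM against sgCTL, 49.1% to 34.1% against knockdown, 53.5% to 37.3% in the knockdown interaction and 48.2% to 30.3% in the ΔRRM interaction. It shifted the median log2 fold change of all genes by -0.163 in Rh30 ΔRRM against knockdown, by -0.214 in Rh30 against ES8 and by -0.206 in the ΔRRM interaction. Counts of called genes moved by over 1.5 times in ES8 ΔRRM against sgCTL (30, and 48 to 519 under 6 settings), ES8 ΔRRM against knockdown (2516, with 1353 under the block, 4596 with all 18 libraries, 5419 with the correction and 4663 with the block added), ES8 knockdown (4701, and 7285 with the correction) and the knockdown interaction (1848, with 3095 and 3955 under both forms). With 3 libraries per group, the calls of *MANF* and *PDIA6* in Rh30 knockdown turned on single libraries, while depth was not the limit for the 10 genes.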
